A study of Mus musculus with 22 samples.

Results

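A set of 10 genes of the neuronal cytoskeleton and growth cone were followed across cultured granule cells of the mouse cerebellum: Dcx, Dclk1, Map2, Mapt, Map1b, Tubb3, Stmn2, Gap43, Nefl and Nefm. They were taken by gene symbol, which gave 31 of the 45101 probe sets on the array and 10 of the 18193 genes that have a probe set of their own. A probe set is a group of short oligonucleotides that reads a single transcript region. Dclk1 had 9 probe sets, Dcx, Map2 and Mapt had 4 each, Map1b had 3, Stmn2 and Nefl had 2 each, and Tubb3, Gap43 and Nefm had 1 each. In counts of genes, each gene is represented by its brightest probe set over all arrays. All 31 probe sets passed the filter on dim signals.

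RNA was profiled on 22 arrays of granule cells from cerebella of postnatal day 7 pups, in 3 separate comparisons. Chd7 mutant cells (n = 4) were set against wild type cells (n = 4). In the study's mutant, Atoh1-Cre deletes floxed Chd7, a chromatin remodeller, in the granule lineage, and its controls carry the floxed alleles without Cre. ICRF-193, which blocks topoisomerase II, was given for 12 h at 10 µM (n = 4), and DMSO, its solvent, to the controls (n = 4). The third comparison took cells grown in the presence of Smo2 (n = 3) and control cultures (n = 3). The study describes cultures with an agonist of Smoothened, the receptor component that switches on hedgehog signalling, and whether Smo2 is that agonist cannot be read from the labels. The labels give the strain C56Bl6/J for all samples (C57BL/6N in the study's methods), state no genotype outside the Chd7 comparison, and call the cells both granule neuron progenitors and granule neurons. The pups' sex was not separated in the study's methods. All samples are labelled biological replicates, so p-values measure the spread between such samples. In bulk RNA, fewer cells of a type and less RNA per cell cannot be told apart.

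The cytoskeleton of a young neuron is built from microtubules and neurofilaments. Microtubules are polymers of tubulin that microtubule-associated proteins stabilise and space, and stathmins release tubulin from them. Neurofilaments set the calibre of axons, while membrane proteins such as Gap43 act at the growth cone, the motile tip of the axon. Granule cell progenitors divide in the outer layer of the cerebellar cortex under Sonic hedgehog, then leave the cycle, extend parallel fibres and migrate inward. Transcripts of this gene group accumulate during that step, and several of them are widely used to mark young neurons.

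Promoter sequence was at hand for 5 of the 10 genes. The 250 bases before each annotated RefSeq start (GRCm38.p6) are printed 5′ to 3′ on the gene's strand, because these genes moved together with Smo2 and because the probe sets of Dclk1 divided in direction there. Dclk1 is shown at both of its annotated starts, and Dcx at the more upstream of a pair of overlapping windows. Capitals mark matches, on either strand, of CAGATG (the E-box form bound by Atoh1 and Neurod1), GACCACCCA (a Gli site) and the TATA box letters TATAAA. Also in capitals is the GC-rich element GGGCGG, known as the GC box.
Dcx, chrX:143933220-143933469 (minus strand): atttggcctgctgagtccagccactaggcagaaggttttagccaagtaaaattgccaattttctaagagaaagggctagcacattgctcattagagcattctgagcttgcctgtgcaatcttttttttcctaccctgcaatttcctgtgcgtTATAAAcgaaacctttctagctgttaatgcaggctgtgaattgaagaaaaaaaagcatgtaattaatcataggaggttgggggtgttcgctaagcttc
Dclk1, upstream start, chr3:55242114-55242363 (plus strand): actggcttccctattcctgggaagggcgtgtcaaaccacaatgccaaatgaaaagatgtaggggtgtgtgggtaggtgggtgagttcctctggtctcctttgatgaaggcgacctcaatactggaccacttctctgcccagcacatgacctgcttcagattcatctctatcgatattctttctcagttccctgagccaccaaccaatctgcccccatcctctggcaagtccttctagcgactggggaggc
Dclk1, internal start, chr3:55461478-55461727 (plus strand): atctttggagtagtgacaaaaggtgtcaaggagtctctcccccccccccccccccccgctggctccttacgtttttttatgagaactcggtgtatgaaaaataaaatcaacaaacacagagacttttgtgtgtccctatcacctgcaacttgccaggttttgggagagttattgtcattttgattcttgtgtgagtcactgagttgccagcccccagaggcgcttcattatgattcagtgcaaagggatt
Map2, chr1:66175079-66175328 (plus strand): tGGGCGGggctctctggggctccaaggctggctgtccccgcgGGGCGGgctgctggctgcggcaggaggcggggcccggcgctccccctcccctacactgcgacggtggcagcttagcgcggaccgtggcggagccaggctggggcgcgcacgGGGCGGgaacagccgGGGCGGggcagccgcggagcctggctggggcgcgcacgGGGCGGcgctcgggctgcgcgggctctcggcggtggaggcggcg
Map1b, chr13:99516603-99516852 (minus strand): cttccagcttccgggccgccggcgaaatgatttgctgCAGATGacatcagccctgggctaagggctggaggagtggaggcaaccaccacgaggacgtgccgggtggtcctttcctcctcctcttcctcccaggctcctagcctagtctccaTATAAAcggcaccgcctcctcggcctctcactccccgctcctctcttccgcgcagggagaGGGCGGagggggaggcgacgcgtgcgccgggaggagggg
Tubb3, chr8:123411303-123411552 (plus strand): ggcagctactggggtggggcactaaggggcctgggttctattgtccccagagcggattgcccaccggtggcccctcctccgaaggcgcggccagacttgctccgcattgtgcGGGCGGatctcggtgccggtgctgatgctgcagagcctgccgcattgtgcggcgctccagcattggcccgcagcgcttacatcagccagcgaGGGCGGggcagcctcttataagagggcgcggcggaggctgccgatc
The windows differed in base composition. GC content was 81.2% at Map2, 68% at Tubb3 and 66.4% at Map1b, against 41.6% at Dcx and 52.4% and 46.8% at the upstream and internal starts of Dclk1. Map2 had 34 CpG dinucleotides and 5 GC boxes, and Tubb3 had 21 and 2. Dcx held only a TATA box match, Map1b held 1 match each of the E-box, the TATA box and the GC box, and both Dclk1 windows held none. Among 32817 windows of all genes cut the same way, the E-box was found in 14.5%, the Gli site in 0.225%, the TATA box in 12.4% and the GC box in 32.7%. A match is a description of letters and does not show a bound site.

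All values below are log2 signals after quantile normalisation of the 22 arrays, and all differences are on the log2 scale. Signals of different probe sets are not compared, since each probe set has its own brightness. In each comparison 22496 probe sets were tested with limma (two-sided, Benjamini-Hochberg adjustment over all of them), and a gene rose or fell at an adjusted p under 0.05. The granule neuron markers Pax6 and Neurod1 passed the filter on dim signals, with group means of at least 12.78 and 14.54. Gabra6, a marker of mature granule neurons, had means of 5.38 to 7.03 and did not pass the filter. Of the Purkinje cell list, Calb1, Pcp4 and Gad1 passed the filter, with group means of at least 6.66, 11.75 and 10.19. Gad1 is also in the interneuron list. Pcp2 (group means 4.64 to 5.11), Car8 (4.80 to 7.55) and Slc1a6 (4 in every group) did not pass. Of a pair of Chd7 probe sets, 1437745_at fell by 2.03 in the mutant (adjusted p = 0.00338), while 1448026_at had a change of -0.25 (adjusted p = 0.298). The sources used here do not place either probe set against the deleted exons.

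**Figure D1:**
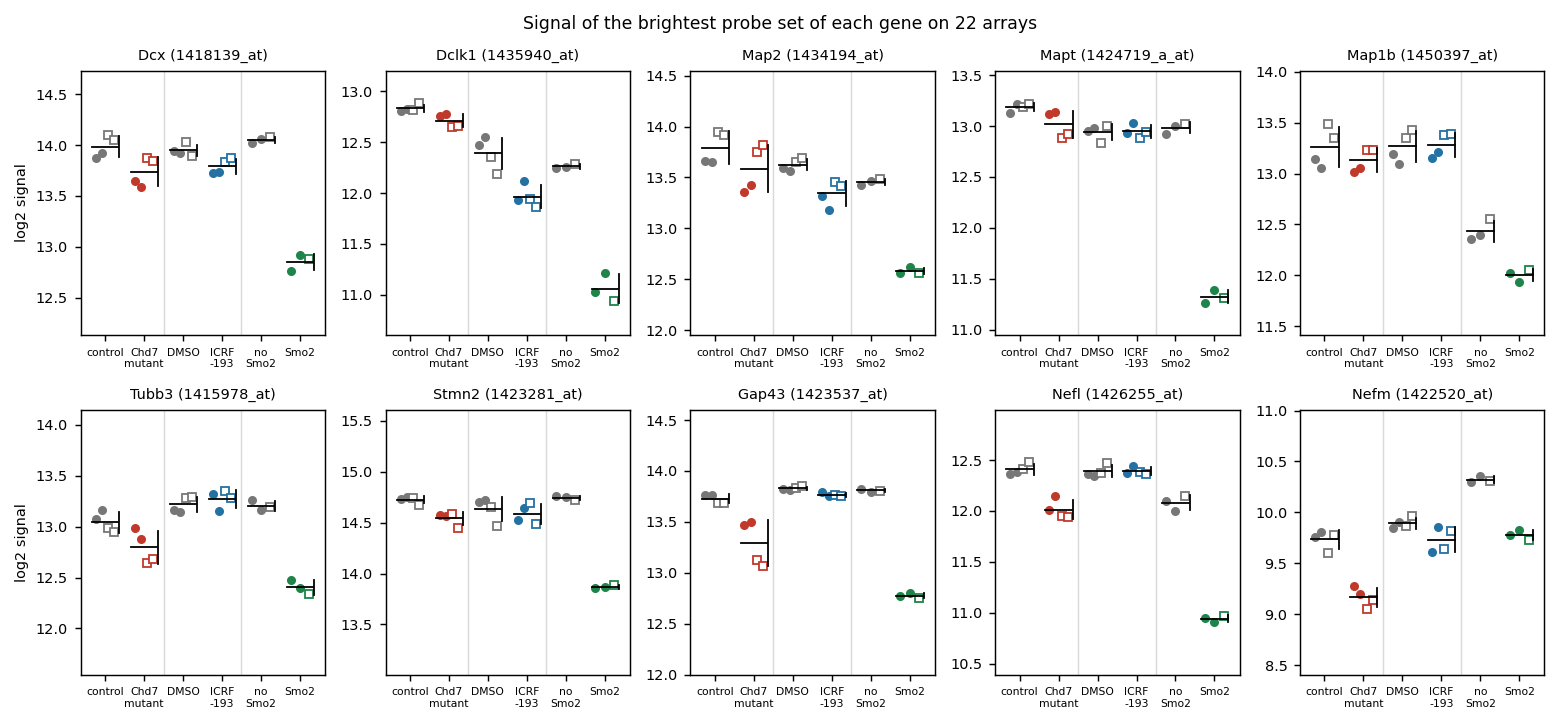
Log2 signal of the brightest probe set of the 10 genes on each of the 22 arrays. Filled circles are replicates 1 and 2, open squares are replicates 3 and 4, and the line and bar give the group mean ± SD. The 3 Smo2 arrays lie below their controls for every gene, and the 4 Chd7 mutant arrays lie below their controls for Gap43, Nefl and Nefm, among others.

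With Smo2, all 10 genes fell. Changes ranged from -1.66 for Mapt to -0.43 for Map1b, with a median of -0.95, against -0.09 over all genes tested. Change was wide in this comparison, since 37.6% of all genes fell and 28.7% rose. All 3 Smo2 arrays lay below all 3 controls for each of the 10 genes, a pattern that 41.6% of all genes showed. Counted by probe set, 27 of 31 fell and 4 rose, where 34.9% of all probe sets fell and 26.4% rose. The 4 that rose all belong to Dclk1. A fit with replicate number as a block also called all 10 genes lower, against 35.9% of all genes.

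Among the microtubule-associated proteins, Mapt fell most. Mapt encodes tau, which binds axonal microtubules. Its brightest probe set read 12.93, 13.00 and 13.02 in the control cultures and 11.27, 11.39 and 11.31 with Smo2. The groups were far apart and each was tight. The difference was -1.66 (95% CI -1.82 to -1.50, adjusted p = 1.20e-05), a 3.16-fold decrease. The other Mapt probe sets had changes of -1.90 to -1.37.

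Dcx encodes doublecortin, which binds microtubules in migrating neurons. It read 14.02, 14.06 and 14.08 in control cultures and 12.77, 12.92 and 12.88 with Smo2. The difference was -1.20, a 2.29-fold decrease (95% CI -1.35 to -1.04, adjusted p = 3.19e-05), and its other 3 probe sets had changes of -1.17 to -0.65. Map2, the microtubule-associated protein of dendrites, read 13.43, 13.47 and 13.48 without and 12.56, 12.62 and 12.57 with Smo2, a 1.84-fold decrease (adjusted p = 5.52e-05). All 4 Map2 probe sets fell, with changes of -0.88 to -0.35. Map1b, which acts on microtubules of growing axons, had the smallest change. It read 12.35, 12.40 and 12.55 in control cultures and 12.02, 11.94 and 12.06 with Smo2, a difference of -0.43 (adjusted p = 0.00345). Its dimmer probe sets had changes of -0.72 and -0.85.

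Dclk1 encodes a kinase with doublecortin domains, and the gene also has an internal start that gives shorter kinase forms. The brightest probe set, 1435940_at, read 12.25, 12.25 and 12.29 in control cultures and 11.03, 11.21 and 10.94 with Smo2, a difference of -1.20 (adjusted p = 7.65e-05). The probe set 1436659_at read 12.01, 12.00 and 11.97 in the same control cultures and 12.31, 12.34 and 12.37 with Smo2, a rise of 0.35 (adjusted p = 0.00204). The arrays did not overlap in either case, and the directions were opposite.

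In all, 5 Dclk1 probe sets fell with Smo2, with changes of -1.46 to -0.88, and 4 rose by 0.28 to 0.35. The rises are small beside the falls. They were not called in a fit of all 22 arrays with a shared variance, which called 0 of the 9 probe sets higher. Over the 22 arrays, with each experiment's mean removed, the probe sets that rose correlated with each other at 0.75 to 0.92, those that fell at 0.04 to 0.92 (median 0.68), and mixed pairs at -0.54 to 0.37 (median -0.17). These correlations describe arrays that share groups and sets, and they include the directions with Smo2 by which the probe sets were divided. The sources used here do not say which of the starts printed above each probe set reads.

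**Figure D2:**
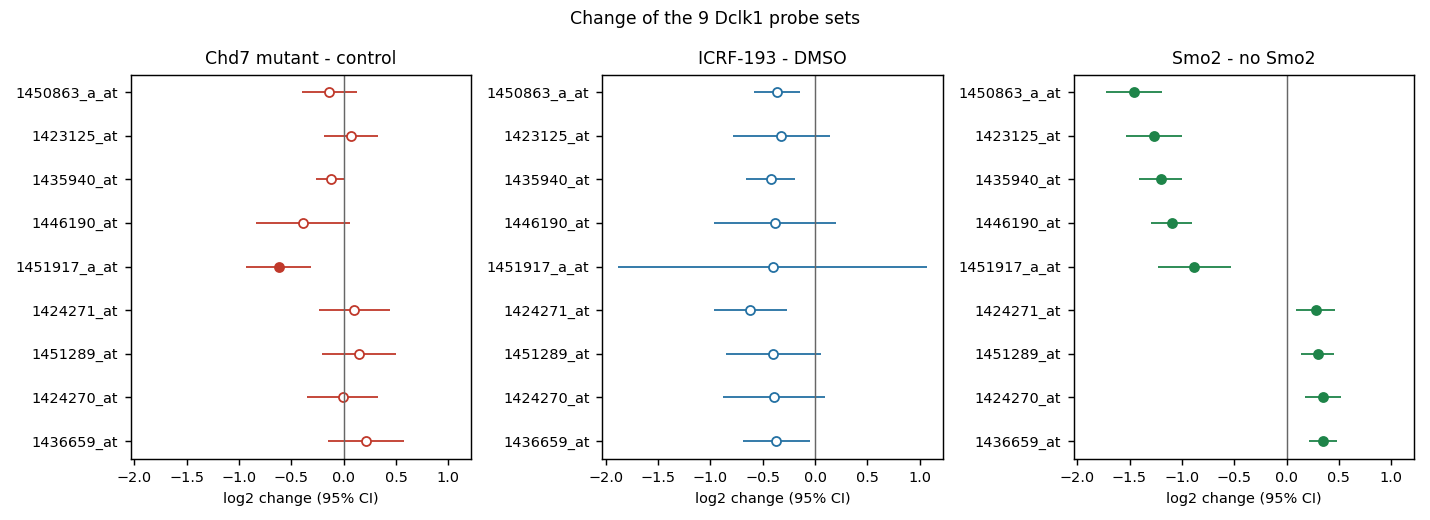
Log2 change of the 9 Dclk1 probe sets in the 3 comparisons, with 95% confidence intervals and filled points for an adjusted p under 0.05. With Smo2 5 probe sets lie between -1.46 and -0.88 and 4 between 0.28 and 0.35, while with ICRF-193 all 9 lie below 0.

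Tubb3, a neuronal beta tubulin, read 13.26, 13.16 and 13.19 without and 12.48, 12.40 and 12.33 with Smo2, a 1.74-fold decrease (adjusted p = 0.000144). Stmn2, a stathmin of growth cones that sequesters tubulin, read 14.76, 14.75 and 14.72 without and 13.85, 13.87 and 13.89 with Smo2, a 1.83-fold decrease (adjusted p = 4.86e-05). Both genes had fully separate groups. Gap43, a membrane protein of the growth cone and a substrate of protein kinase C, read 13.83, 13.79 and 13.80 without and 12.77, 12.80 and 12.75 with Smo2. That is a 2.05-fold decrease (adjusted p = 2.78e-05).

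Both neurofilament genes fell as well, Nefl more than Nefm. Nefl, the light subunit, read 12.10, 12.00 and 12.15 without and 10.95, 10.90 and 10.97 with Smo2, a 2.21-fold decrease (adjusted p = 3.78e-05). Nefm, the medium subunit, read 10.30, 10.36 and 10.30 without and 9.78, 9.83 and 9.73 with Smo2, a 1.45-fold decrease (adjusted p = 0.000434).

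Markers of the granule lineage moved with these falls. Of 9 measured progenitor markers, 9 rose with Smo2 (median 2.00), and Mki67, a marker of dividing cells, went from 10.17 ± 0.15 to 13.05 ± 0.05 (mean ± SD, n = 3). Of 9 measured granule neuron markers, 9 fell (median -0.79). The mean of the progenitor list was 9.44 to 9.60 on the control arrays and 12.32 to 12.37 on the Smo2 arrays. Microglial markers fell too, 5 of 5, and astrocyte markers fell in 7 and rose in 3 of 10. The part of these shifts in the cytoskeletal changes was not tested.

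Other genes of the same machinery were read from 9 lists. Of 161 measured genes, 131 fell with Smo2 (81.4%) and 14 rose (8.70%), with a median of -0.59. Among all genes 37.6% fell and 28.7% rose. Motors moved most evenly, as 17 of 18 fell, none rose and Kif5a, a neuronal kinesin, fell by 1.81. Of 21 other microtubule-associated proteins, 18 fell and 2 rose, with Mtus2 at -1.33. Nde1, a dynein regulator that also acts in mitosis, rose by 2.95. Of 21 stathmins, severing and modifying enzymes, 17 fell and 2 rose, and the severing enzyme gene Fign fell by 1.46 while its relative Fignl1 rose by 2.79.

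Growth cone proteins fell in 28 of 35 cases and rose in 2, and the collapsin response mediators Dpysl3 (-1.49) and Dpysl4 (0.60) moved in opposite directions. Plus-end and cross-linking proteins fell in 15 of 17 cases, with Clip3 at -1.46, and Ckap5, a spindle microtubule polymerase, rose by 0.64. Kinases and phosphatases of these proteins fell in 19 of 22 cases, with Camk2b at -1.81. Ankyrins and spectrins fell in 10 and rose in 2 of 12 cases, with Ank2 at -1.62 and Epb41l2 at 1.15. Tubulins were mixed, as 4 fell and 2 rose of 9, with Tuba4a at -1.35 and Tubb4b at 1.11. So were the intermediate filaments, where 3 fell and 3 rose of 6, with Gfap, the astrocyte filament, at -1.21 and Lmnb1, a nuclear lamin, at 1.14.

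In the Chd7 mutant, both neurofilament genes fell and the other 8 genes did not pass the test. The background was 3.12% of all genes lower and 4.30% higher. Nefm read 9.76, 9.80, 9.60 and 9.78 in control arrays and 9.28, 9.19, 9.05 and 9.14 in mutant arrays. Every mutant array lay below every control. The difference was -0.57, a 1.48-fold decrease (95% CI -0.75 to -0.39, adjusted p = 0.00486).

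Nefl read 12.36, 12.38, 12.41 and 12.48 in control arrays and 12.01, 12.15, 11.95 and 11.94 in mutant arrays, again without overlap. Its difference was -0.40, a 1.32-fold decrease (95% CI -0.56 to -0.24, adjusted p = 0.0148). The other Nefl probe set fell by 0.53 (adjusted p = 0.0482). Within replicates 1 and 2 the Nefl difference was -0.29 (adjusted p = 0.166), and within replicates 3 and 4 it was -0.50 (adjusted p = 0.0376). Nefm had -0.55 (adjusted p = 0.0496) and -0.59 (adjusted p = 0.0440) there.

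Gap43 stood at the threshold. It read 13.76, 13.77, 13.69 and 13.69 in control arrays and 13.47, 13.50, 13.13 and 13.07 in mutant arrays. The groups were separate, and mutant replicates 3 and 4 were lower than mutant replicates 1 and 2. The difference was -0.44 (95% CI -0.69 to -0.18, adjusted p = 0.0543). It was -0.28 (adjusted p = 0.139) within replicates 1 and 2 and -0.59 (adjusted p = 0.0269) within replicates 3 and 4. With replicate number as a block it passed (adjusted p = 0.0440, in a fit where 3.70% of all genes fell), as it did when only the brightest probe set of each gene was tested (adjusted p = 0.0444, where 3.83% of all genes fell).

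For the remaining 7 genes the changes were -0.25 for Dcx, -0.24 for Tubb3, -0.21 for Map2, -0.18 for Stmn2, -0.17 for Mapt, -0.13 for Map1b and -0.12 for Dclk1, with adjusted p between 0.116 and 0.538. All 10 genes had a negative change, as did 48.8% of all genes, and their median was -0.23 against 0.00 over all genes. Arrays did not overlap for 5 of the 10 genes, a lower pattern held by 9.19% of all genes. Of the 31 probe sets 4 fell, where 3.46% of all probe sets did. The fourth, beside those of Nefl and Nefm, was the Dclk1 probe set 1451917_a_at (-0.62, adjusted p = 0.0342), while the other 8 Dclk1 probe sets had changes of -0.39 to 0.21.

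Arrays of replicates 1 and 2 resembled each other across both groups, as did replicates 3 and 4. With this set as a block, 6 of the 10 genes fell (Dcx, Map2, Tubb3, Gap43, Nefl and Nefm), against 7.48% of all genes. With the mean of each set as a sample none was called, nor was any of all 10771 genes, and the adjusted p was 0.308 for Nefm and 0.402 for Nefl.

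Other features moved with the mutant label. The mean of 3 Y-linked genes was 8.38 to 9.03 in control arrays, 6.81 and 6.95 in mutant replicates 1 and 2, and 4.23 and 4.00 in mutant replicates 3 and 4. Without those last arrays Nefm had -0.50 (adjusted p = 0.0265), while Nefl had -0.33 (adjusted p = 0.0644) and Gap43 -0.24 (adjusted p = 0.102). That fit kept control replicates 3 and 4, and its mutant arrays still lay below all controls in Y-linked signal. It therefore does not remove the Y-linked difference. Muscle markers rose in 3 of 3 cases (median 2.49), and their list averaged 5.78 to 6.17 in control and 7.43 to 8.14 in mutant arrays. Fibroblast and pericyte markers rose in 2 of 7 cases and astrocyte and oligodendrocyte markers in 1 of 10 and 1 of 8. Granule neuron markers fell in 1 of 9 cases, with a list average of 11.51 to 11.62 in control and 11.17 to 11.62 in mutant arrays. Of 9 granule progenitor markers, 1 rose and 1 fell. With replicate number as a block the markers that rose were 6 of 7, 5 of 10 and 5 of 8 for fibroblast, astrocyte and oligodendrocyte lists. With that block 6 of 9 granule progenitor markers rose and 1 fell, and 2 of 5 microglial markers fell. In that fit 3.70% of all genes fell, and the share of all genes that rose is not given here. The part of pup sex and of other cells in the neurofilament result was not tested.

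Of the 161 related genes, 12 fell (7.45%) and 5 rose (3.11%) in the mutant, with a median of -0.09. Among all genes 3.12% fell and 4.30% rose. Growth cone proteins had the most calls, 5 lower and 2 higher of 35. Gprin3 fell by 1.21 and Dpysl4 rose by 0.59. Others that fell were Nav3, a microtubule plus-end protein (-0.77), Ank2 (-0.49), the kinase gene Camk2d (-0.62), Fign (-1.81), Mtus1 (-0.43) and the tubulin gene Tubb2a (-0.26). Among those that rose were Lmna, a nuclear lamin (0.93), Epb41l2 (1.03) and Ttll7, a tubulin glutamylase (0.61). Of 18 motors, none passed. With replicate number as a block 3 growth cone proteins fell, and Tubb2a had an adjusted p of 0.0552.

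With ICRF-193, 0 of the 10 genes passed limma's test, where 2.94% of all genes fell and 2.45% rose. At an unadjusted p under 0.05, limma called 2 genes lower, Dclk1 and Map2, against 8.66% of all genes, and the methods' equal-variance test called 4, against 8.77%. The median change was -0.05, against 0.01 over all genes. In simulated independent arrays, without the likeness of replicates described above, small changes were found less often than large ones. A gene that did not pass may still differ.

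Dclk1 read 12.47, 12.55, 12.36 and 12.19 with DMSO and 11.93, 12.12, 11.94 and 11.87 with ICRF-193. The groups did not overlap. The difference was -0.43 (95% CI -0.66 to -0.19, adjusted p = 0.0566), and with replicate number as a block it passed (adjusted p = 0.0328, in a fit where 3.56% of all genes fell). With the set described above as a block both Dclk1 and Map2 passed, against 4.93% of all genes. With the mean of each set as a sample neither did (adjusted p = 0.469 and 0.631), in a fit that called none of the 10771 genes. Changes of the 9 Dclk1 probe sets lay between -0.62 and -0.32, and none passed, where 2.78% of all probe sets fell. With replicate number as a block 3 of the 9 fell (1435940_at, 1424271_at and 1451289_at, with adjusted p of 0.0328, 0.0300 and 0.0394). These 3 also fell with the set as a block. The share of all probe sets that fell in either blocked fit was not counted, so these calls have no background beside them. Map2 read 13.59, 13.57, 13.65 and 13.69 with DMSO and 13.32, 13.18, 13.46 and 13.42 with ICRF-193, also without overlap, and its difference was -0.28 (95% CI -0.47 to -0.08, adjusted p = 0.125).

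The neurofilaments and Gap43 showed little difference with ICRF-193. Nefl read 12.36, 12.34, 12.37 and 12.48 with DMSO and 12.37, 12.45, 12.38 and 12.36 with ICRF-193, and the interval of the difference was -0.16 to 0.16. Nefm had -0.16 (95% CI -0.35 to 0.03). Gap43 had -0.06 (95% CI -0.21 to 0.08), although its arrays did not overlap. Dcx had -0.15 and Stmn2 -0.05, and Mapt, Map1b and Tubb3 had 0.01, 0.02 and 0.06. Arrays were all lower for 4 of the 10 genes, a pattern held by 6.64% of all genes.

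Cell type markers also moved with ICRF-193. The oligodendrocyte list averaged 8.08 to 8.53 with DMSO and 7.55 to 8.06 with ICRF-193, without overlap, and 1 of its 8 genes fell (Cnp, -0.97), or 4 with replicate number as a block. Of 9 granule neuron markers, Rbfox3 fell by 1.02 and Neurod2 rose by 0.51, and the list averaged 11.45 to 11.57 with DMSO and 11.53 to 11.61 with ICRF-193. Of 9 progenitor markers Mycn rose by 0.71, and with the block 2 rose and 2 fell. The share of all genes that rose with the block is not given here. These markers were picked out after their values were seen. Their part in the Dclk1 and Map2 differences was not tested.

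**Figure D3:**
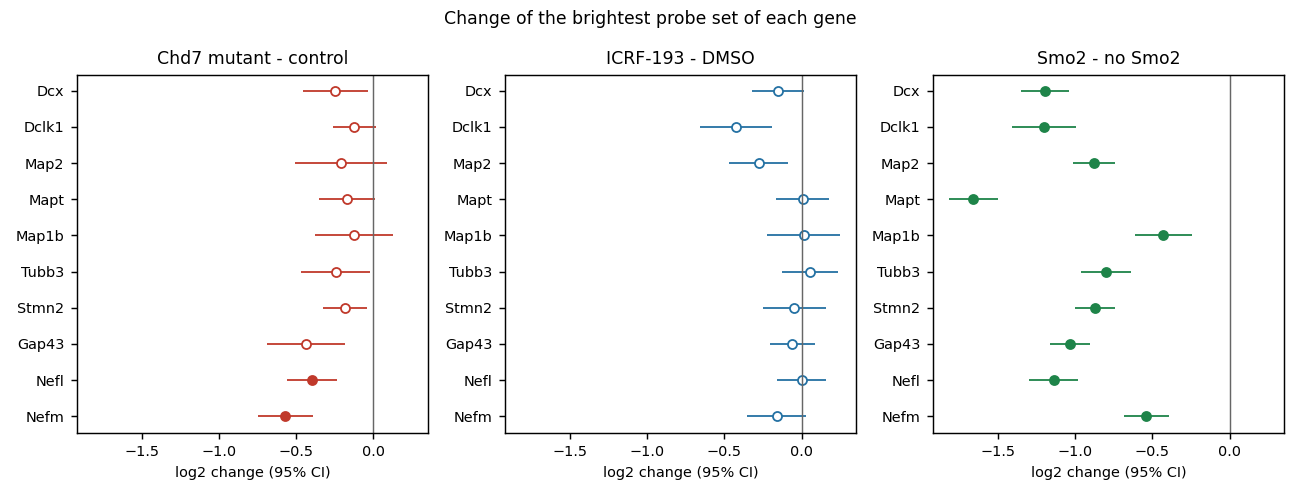
Log2 change of the brightest probe set of the 10 genes in the 3 comparisons, with 95% confidence intervals and filled points for an adjusted p under 0.05. Nefl and Nefm are filled in the Chd7 mutant, no gene is filled with ICRF-193, and all 10 are filled with Smo2, from -1.66 to -0.43.

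The study asks whether ICRF-193 acts by gene length, so the genes were also set in order of length. Dclk1 (297 kb) and Map2 (267 kb) are the longest and had the most negative changes with ICRF-193. Mapt (103 kb), Map1b (95.1 kb), Gap43 (92.1 kb), Dcx (77.6 kb), Stmn2 (52.1 kb), Tubb3 (10.5 kb), Nefm (5.46 kb) and Nefl (5.23 kb) lay between -0.16 and 0.06. Among all genes tested, 445 were over 250 kb, and of these 37.1% fell, with a median of -0.37. Genes of 100 to 250 kb had a median of -0.02, and 5.05% of them fell. In the Chd7 mutant 15.7% of all genes over 250 kb fell (median -0.08), against 2.47% of those under 10 kb (median 0.01). By their brightest probe sets the 10 genes ran the other way there, since the shortest, Nefl and Nefm, were those that fell and Dclk1 had the smallest change. That order depends on the probe set taken for Dclk1. Its dimmer probe set 1451917_a_at had -0.62 (adjusted p = 0.0342), and its others had -0.39 to 0.21. The correlations that follow also use only the brightest probe sets. The Spearman correlation of length and change over the 10 genes was -0.37 with ICRF-193, 0.71 in the Chd7 mutant and -0.38 with Smo2, as a description of 10 genes that were chosen and not sampled.

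**Figure D4:**
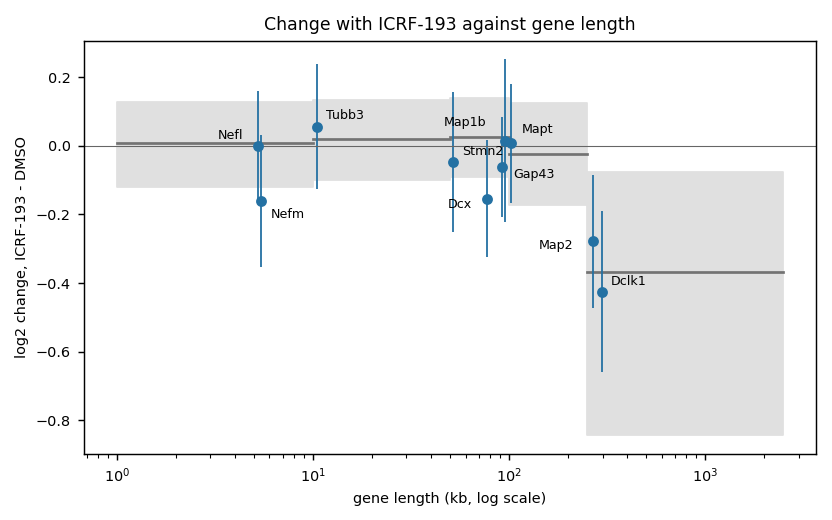
Log2 change with ICRF-193 of the 10 genes (points with 95% confidence intervals) against gene length on a log axis. Grey bands and lines give the quartiles and median of all genes tested in 5 length bins, the outermost of which are open. Map2 and Dclk1 lie in the bin over 250 kb, whose median is -0.37.

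The Chd7 and ICRF-193 effects have separate controls, and their difference was tested in 1 fit of 16 arrays. Chd7 itself fell with ICRF-193, with changes of -1.28 for 1437745_at (adjusted p = 0.00547) and -1.35 for 1448026_at (adjusted p = 0.000883). The Chd7 effect minus the ICRF-193 effect was -0.40 for Nefl (adjusted p = 0.0183) and -0.41 for Nefm (adjusted p = 0.0433). These 2 of 10 genes passed, against 2.14% of all genes lower and 3.34% higher. Gap43 had -0.37 (adjusted p = 0.115), Tubb3 -0.30 (adjusted p = 0.208) and Dclk1 0.30 (adjusted p = 0.172). Both neurofilament differences lost the call when arrays were centred on their medians (adjusted p = 0.288 and 0.264). The Nefm call was lost without any 1 of 11 of the 16 arrays (adjusted p of 0.0643 to 0.0889), namely control replicates 1, 2 and 4, mutant replicates 2, 3 and 4, DMSO replicates 1, 2 and 3, and ICRF-193 replicates 2 and 4.

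Of the 161 related genes 14 fell with ICRF-193 (8.70%) and 1 rose (0.621%), where 2.94% of all genes fell and 2.45% rose. Among all genes over 250 kb 37.1% fell, and the lengths of the 161 genes were not taken into account. Related genes that fell included the calcineurin subunit gene Ppp3ca (-1.48), Nav2 (-1.48), Ank2 (-1.05), Mtus2 (-0.84), Fign (-0.68) and the filament gene Vim (-0.44). Dpysl4 rose by 0.66. Kinases and phosphatases had the most calls, 6 of 22, and tubulins and motors had none.

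Genes whose signal was most like that of each of the 10 were found by Pearson correlation over the 22 arrays, after the mean of each experiment was removed. The synaptic vesicle gene Syp was closest to both Gap43 (0.98) and Nefl (0.98). Mapt was closest to Hk1 (0.99) and Ttc3 (0.99), Dclk1 to Btbd3 (0.99) and Pgm2l1 (0.97), and Dcx to Mbnl2 (0.98) and Hecw1 (0.98). Stmn2 was closest to Dnajc6 (0.98) and Rcan3 (0.98), Map2 to Gab1 (0.98) and Srrm4 (0.97), and Tubb3 to Clcn3 (0.97) and Uchl1 (0.96). Nefm was closest to Ptchd1 (0.95) and Cnksr3 (0.93), and Map1b to A930013F10Rik (0.92) and Ogt (0.90). The arrays share groups and the large Smo2 difference, so these values describe this data set.

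Between the 10 genes themselves, such correlations ranged from 0.49 for Map1b and Nefm to 0.97 for Gap43 and Nefl. Once each group's mean was removed, so that differences between groups no longer counted, they ranged from -0.79 for Map2 and Gap43 to 0.85 for Dcx and Map2. These last values still hold the difference between replicates 1 and 2 and replicates 3 and 4 within a group, which was not removed.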

How the data were processed

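Transcript levels were measured on 22 Affymetrix mouse arrays. The deposited values are linear signal intensities of 45101 probe sets, which the authors had scaled, since the mean after trimming 2% at each end was 500 on every array. The sources used here do not give the method that summarised probes into probe sets. No column holds the authors' own comparisons.

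Intensities were floored at 16 and taken to log2. Array medians ranged from 6.33 to 6.81, over the limit of 0.2, so all arrays were quantile normalised. Probe sets whose mean reached that of the median probe set (6.44) were tested (22496, covering 10771 genes by their brightest probe set). Each comparison was fitted on its own arrays with limma 3.58.1 in R 4.3.3. Arrays give no read depth, and their number limits the precision. Gene lengths and starts are those of RefSeq (GRCm38.p6). Of 10771 genes 0.195% had no length. Plots were made in Python 3.11.15 with matplotlib 3.10.9.

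The 10 genes, the lists of related genes and markers and the tests were chosen with earlier results of these data known. Named genes are the 10 with all their probe sets, the called gene with the largest change each way in each list of related genes, and the 2 genes most correlated with each of the 10. Defining markers of the granule lineage and the Purkinje cell markers that had a probe set of their own are named too. The Purkinje, interneuron, unipolar brush, microglial and endothelial lists had 3, 6, 2, 5 and 1 measured genes, of which 1, 0, 1, 0 and 0 fell and none rose in the Chd7 mutant, 1, 1, 0, 0 and 0 fell with ICRF-193, where 1 unipolar brush gene rose, and 3, 5, 2, 5 and 0 fell with Smo2, where 1 interneuron gene rose.

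Deviations from group means correlated between same-numbered arrays at 0.30 to 0.35 (Chd7), 0.28 to 0.41 (ICRF-193) and 0.02 to 0.04 (Smo2). Arrays of the same set but another number, replicates 1 and 2 or 3 and 4, correlated about as highly. Their values were 0.27 to 0.36 (Chd7) and 0.32 to 0.34 (ICRF-193). These values show likeness by set and do not show that the numbers pair samples. Replicate number was used as a block in alternative fits only.

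The fit was tested on simulated data with known changes, in independent arrays without the likeness of sets. Estimates were unbiased and false calls stayed near the threshold, and small changes were found less often than large ones. Alternatives changed the normalisation, filter, floor, variance model, test, threshold, block and arrays used.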

Additional observations from a re-analysis of the deposited data

Results flagged for a closer look

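A total of 124 groups of 4 arrays, over all 31 probe sets, were checked for an array far from the others. In 7 (5.65%) the gap to the nearest array, as a share of the group's range, exceeded Dixon's 95% critical value for 4 arrays, where chance gives about 1 in 20. In the Chd7 comparison the share of the range was 0.835 for Mapt 1417885_at in control replicate 1, 0.870 for Map1b 1421850_at in mutant replicate 3, 0.961 for Dclk1 1446190_at in mutant replicate 3 and 0.934 for Dcx 1448974_at in mutant replicate 2. In the ICRF-193 comparison it was 0.888 for Dcx 1418141_at and 0.890 for Gap43 1423537_at, both in ICRF-193 replicate 1, and 0.936 for Dclk1 1424271_at in DMSO replicate 3. The Gap43 array lay at 13.79 against 13.76 for the other three, so the absolute gap was small.

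The Chd7 and ICRF-193 effects differed by -0.40 for Nefl and by -0.41 for Nefm in a test of the difference itself.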

How the results depend on the processing

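All 10 genes kept a negative change in the Chd7 mutant and with Smo2 under every alternative run. With Smo2 10 were called lower throughout, except that with arrays centred on their medians Map1b had -0.21 (adjusted p = 0.0528). That centring moved the median of all genes with Smo2 from -0.09 to 0.05 and the median of the 10 genes from -0.95 to -0.72. The Dclk1 probe sets called higher numbered 3 to 4 on leaving out 1 array and 0 in a fit of all 22 arrays. In the Chd7 mutant 2 genes were called lower (against 3.12% of all genes). They became 4 with trended and robust variances (4.67%), 4 with all 22 arrays (5.29%) and 8 with the methods' test unadjusted (12.0%). The count was 6 with the set as a block (7.48%), 1 at a threshold of 0.01 (1.03%) and 0 with set means (no gene called). It was 1 within replicates 1 and 2 (2.08%) and 3 within replicates 3 and 4 (3.00%). Without mutant replicates 3 and 4, the lowest in Y-linked signal, it was 1 (3.71%). On leaving out 1 array it was 2 to 3 (3, with Gap43, without mutant replicate 2). With ICRF-193, 0 genes (2.94% of all genes) became 2 with trended and robust variances (3.46%), 1 with genes in place of probe sets (3.48%), 1 at a threshold of 0.10 (4.02%), 1 with all 22 arrays (5.08%), 4 with the methods' test unadjusted (8.77%), 2 with the set as a block (4.93%), 0 with set means (no gene called) and 0 to 1 on leaving out 1 array (1, Dclk1, without DMSO replicate 4). For the difference of the effects, 2 genes (2.14%) became 3 with trended and robust variances (2.77%, Gap43 added), 0 with median centring (0.938%), 1 with no filter (1.60%), 0 at a threshold of 0.01 (0.780%) and 1 to 2 on leaving out 1 array (2, with Gap43 in place of Nefm, without mutant replicate 2). The cause was not tested.

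With the replicate number as a block, the genes called lower were 3 in the Chd7 mutant (Gap43 added), 1 with ICRF-193 (Dclk1 added) and 10 with Smo2, and the block changed no other call of the 10 genes in those comparisons.

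With ICRF-193 some changes near 0 crossed it. With median centring Mapt had -0.058, Map1b -0.052, Tubb3 -0.0032 and Nefl -0.065. With the values as deposited Mapt had -0.00600, Map1b -0.000615, Stmn2 0.035 and Nefl -0.014. Within replicates 3 and 4 Mapt had -0.00047, Map1b -0.010, Stmn2 0.030 and Nefl -0.055. On leaving out 1 array, Mapt ranged from -0.030 to 0.029, Map1b from -0.044 to 0.070 and Nefl from -0.019 to 0.029. Map2 ranged from -0.0061 to 0.148 in the difference of the effects. The number of arrays and their likeness in sets limit the Chd7 and ICRF-193 results.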
